A study of Trametes cinnabarina with 17 samples.

Results

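The comparison described here set mycelium of *Pycnoporus cinnabarinus* CIRM-BRFM 137 grown on isolated hemicelluloses, a mixture of xylans and galactomannans (xylan-galactomannan), against mycelium grown on wheat straw, a whole grass biomass. It rests on the 3 xylan-galactomannan and the 3 wheat straw libraries, which are 6 of the 17 RNA-seq libraries of this fungus, all chosen by their labels. The other 11 libraries came from cultures on maltose, Avicel (a crystalline cellulose), aspen wood and pine wood. All cultures were of 1 strain grown in liquid medium for 3 days. According to the labels each of the 2 media compared contained its substrate at 15 g/l and maltose at 2.5 g/l, so the added maltose was the same on either side, whereas the maltose control held 20 g/l maltose. The study's text calls each substrate the only carbon source, and this difference was not resolved. The sources do not say that the xylan-galactomannan replicates came from separate cultures, so the spread between these libraries may be technical. The p-values rest on the spread within groups, estimated over all 17 libraries together.

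*P. cinnabarinus* is a white-rot fungus, a wood decayer that breaks down cellulose, hemicelluloses and lignin with secreted enzymes. Cellulose is cut by endoglucanases and cellobiohydrolases and by lytic polysaccharide monooxygenases (LPMOs), which cleave chains by oxidation, and β-glucosidases release glucose. Xylan is a chain of xylose with side groups, and galactomannan a chain of mannose with galactose branches, so that both can be degraded without any cellulase. In fungi the pentoses xylose and arabinose are taken up, reduced to polyols by aldo/keto reductases, oxidised again by polyol dehydrogenases and phosphorylated by xylulokinase. Laccases oxidise phenols, and cytochrome P450 monooxygenases, epoxide hydrolases and ABC transporters act on small aromatic and other foreign molecules inside or at the membrane of the cell.

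The total count per library lay between 14110465 and 16176027 on xylan-galactomannan and between 14818467 and 15950092 on wheat straw. The standard deviation over genes of the log2 difference between libraries was 0.345 to 0.511 within xylan-galactomannan, 0.19 to 0.296 within wheat straw and 0.761 to 1.07 between the groups. The widest pair within a group was xylan-galactomannan replicates 1 and 2. No pair of replicates agreed within sampling noise. Levels are given as normalized counts, which are the authors' read counts divided by a size factor per library. They are relative to all transcripts of a library, so fewer hyphal cells of a kind and less RNA per cell cannot be told apart.

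Of 9162 genes tested, 686 were higher on xylan-galactomannan and 711 were lower, at an adjusted p under 0.05 (edgeR quasi-likelihood test, Benjamini-Hochberg) and a log2 fold change beyond 1 in either direction. These are 7.49% and 7.76% of the genes tested. Log2 fold changes are given as xylan-galactomannan minus wheat straw throughout, so a negative value means a lower transcript level on the isolated hemicelluloses. The median log2 fold change of all genes was 0.02. The median absolute log2 fold change was 1.45 among the higher and 1.39 among the lower genes. A change beyond 3 on the log2 scale was found for 64 higher and 64 lower genes. The ranges of the replicates were separate for 677 of the 686 higher and 706 of the 711 lower genes, and for 59.2% of all genes tested.

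**Figure D1:**
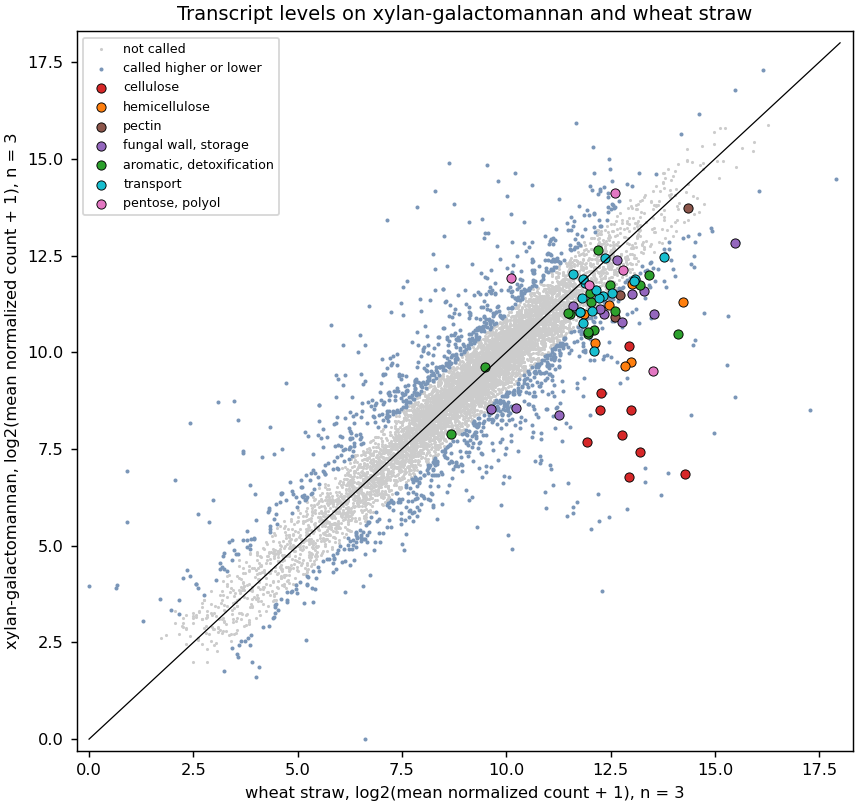
Mean transcript level of each gene on wheat straw (x axis) and on xylan-galactomannan (y axis), as log2(mean normalized count + 1) over 3 libraries each. Grey points are genes not called, blue points the genes called in either direction and large coloured points the members of 7 role lists, and all 9 cellulose list genes lie below the line of equal level.

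The study's annotation gave a predicted role for a part of the gene models. From it 68 genes were sorted into 7 lists by role, except that the cellulose list is a whole cluster of the study. Of the 68, 40 were lower on xylan-galactomannan and 2 were higher, beside 7.76% and 7.49% of all genes tested. The same 2 shares of all genes serve for each list below. The 68 had a median log2 fold change of -1.23. The study had picked these genes on libraries that include wheat straw, so their direction is not independent evidence, and no list was tested as a set. With Bonferroni adjustment over the same fit, the calls of the genes named below as protein IDs 929, 1643, 1924, 2923, 2937, 3421, 5902, 6931, 8551 and 8672 were lost, with adjusted p from 0.093 to 1. Xylanases and endo-mannanases, the enzymes that cut the main chains of the 2 substrates, were not among the annotated protein IDs used here.

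**Figure D2:**
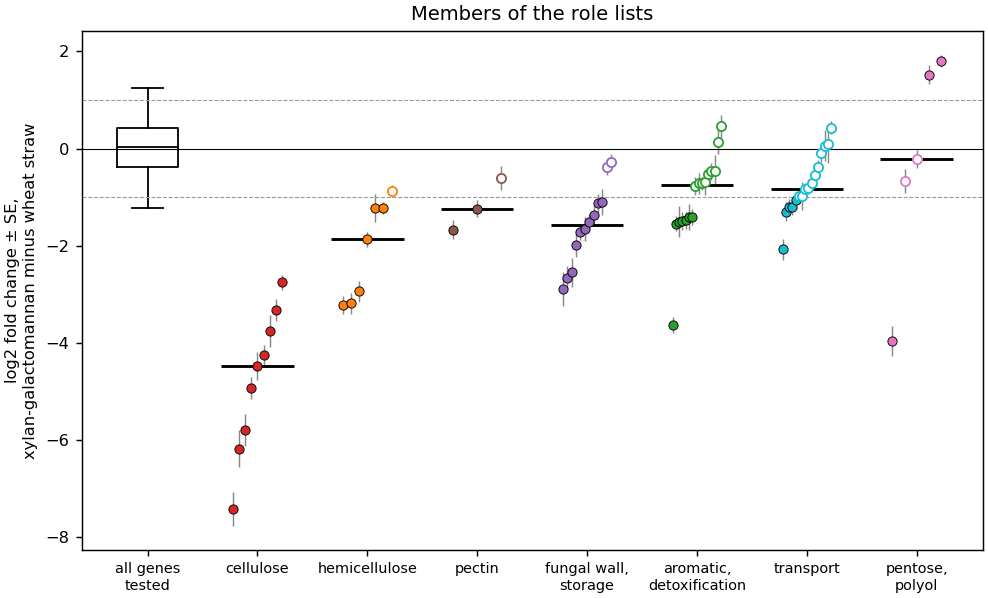
Log2 fold change with its standard error for each member of the 7 role lists, xylan-galactomannan minus wheat straw. Filled points were called, open points were not, short bars are list medians, dashed lines mark the threshold of 1 in either direction, and the box shows the quartiles and the 5th to 95th percentile of all genes tested. All 9 cellulose list genes lie at or below -2.76, and 2 pentose and polyol genes lie above the upper line.

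The cellulose list was lower on xylan-galactomannan throughout. It is a whole cluster of the study, rich in secreted proteins and formed from levels on maltose, Avicel, aspen, pine and wheat straw. A shared direction of its members is thus in part set by that choice. Protein IDs 6605, 3419 and 6394 are in the cluster but are not predicted cellulose-degrading enzymes. All 9 genes were called, and their log2 fold changes ran from -7.43 to -2.76 with a median of -4.48. In each of the 9 the 3 wheat straw values lay above the 3 xylan-galactomannan values. Of all genes tested, 59.2% had separate groups in either direction.

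The largest difference belonged to protein ID 6605, a predicted serine carboxypeptidase, an enzyme that trims proteins and not polysaccharides. It had 86.4, 141 and 116 normalized counts in the xylan-galactomannan libraries and 14320, 19670 and 25519 in the wheat straw libraries. Its mean was 173-fold higher on wheat straw (log2 fold change -7.43 ± 0.35 (SE), adjusted p = 5e-11, edgeR). Its mean on xylan-galactomannan, 114 ± 27.4 (SD), lay beside that on maltose, 117 ± 13.1 (SD).

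The 2 endoglucanases of family GH5 with a cellulose-binding module differed in how far they moved. Protein ID 1929 had 93.6, 76.2 and 154 normalized counts on xylan-galactomannan and 5027, 8330 and 10082 on wheat straw, a log2 fold change of -6.18 ± 0.38 (SE). Protein ID 8616 had 495, 339 and 637 on xylan-galactomannan and 4614, 4545 and 5549 on wheat straw, a log2 fold change of -3.32 ± 0.23 (SE). The means of 1929 were 72.4-fold apart and those of 8616 10-fold apart, and neither pair of groups overlapped. Their adjusted p values were 1e-09 and 3.4e-09.

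Protein ID 1365, a glucanase of family GH131 with a cellulose-binding module, had 144, 97.5 and 267 normalized counts on xylan-galactomannan against 7560, 8992 and 11553 on wheat straw. Its log2 fold change was -5.79 ± 0.33 (SE, adjusted p = 4.9e-10). The LPMO of family AA9, protein ID 5579, had 217, 165 and 229 against 3319, 3522 and 4832, a log2 fold change of -4.25 ± 0.21 (SE, adjusted p = 8.4e-11). Both genes were thus low in every xylan-galactomannan library and high in every wheat straw library.

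Protein ID 5845, of family GH7 to which many fungal cellobiohydrolases belong, had 317, 171 and 598 normalized counts on xylan-galactomannan and 4889, 4267 and 5501 on wheat straw. The log2 fold change was -3.75 ± 0.33 (SE, adjusted p = 7.4e-08). The 3 xylan-galactomannan libraries spread widely for this gene, with replicate 2 lowest and replicate 3 highest. A predicted mutarotase, protein ID 3419, which interconverts sugar anomers, had 196, 190 and 305 against 6284, 6693 and 8185 (log2 fold change -4.93 ± 0.23 (SE)), and protein ID 6394, without a predicted function, 294, 369 and 435 against 6027, 8373 and 10108 (-4.48 ± 0.29 (SE)).

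The smallest difference of the list was that of protein ID 4378, of family GH1, which holds β-glucosidases. It had 1027, 1252 and 1167 normalized counts on xylan-galactomannan and 7432, 7252 and 8869 on wheat straw, a log2 fold change of -2.76 ± 0.15 (SE, adjusted p = 2.5e-10). Its mean on maltose was 165 ± 4.84 (SD, n = 3), so that here the xylan-galactomannan mean of 1149 ± 114 (SD, n = 3) stood apart from the maltose level as well. Across the 6 carbon sources, 8 of the 9 genes had their highest mean on Avicel and their second highest on wheat straw, and xylan-galactomannan was above maltose alone. The exception was 6605, with its highest mean on wheat straw and its lowest on xylan-galactomannan. The cluster was formed from levels on all of these carbon sources but xylan-galactomannan, so the shared order is in part set by it. The list took between 0.0213 and 0.029% of all counts in the xylan-galactomannan libraries and between 0.443 and 0.678% in the wheat straw libraries.

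**Figure D3:**
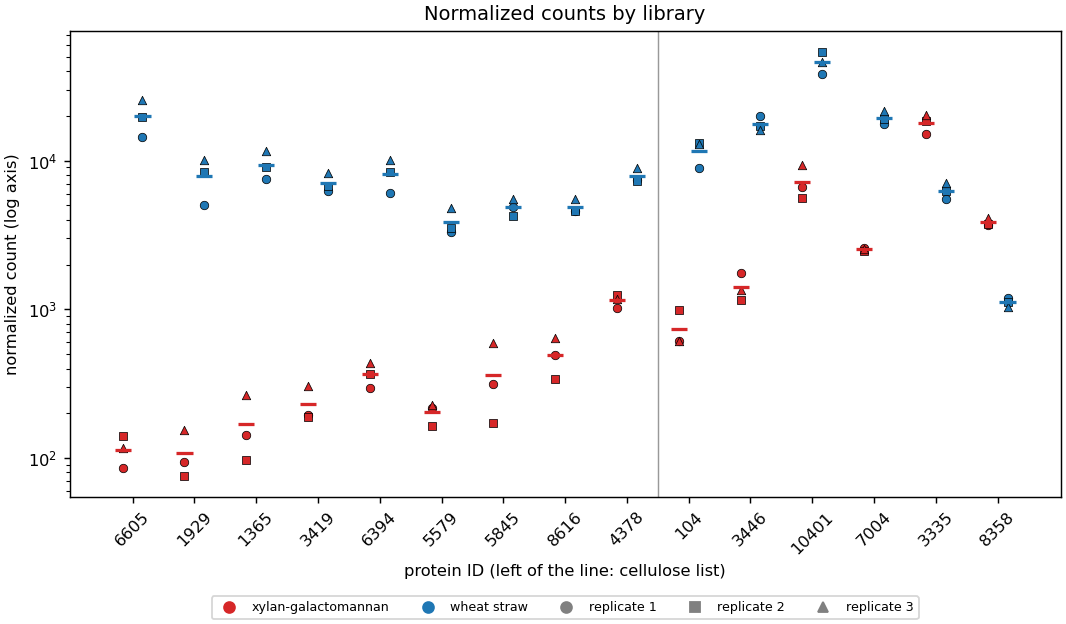
Normalized count in each library (log axis) for the 9 cellulose list genes, left of the line, and for 6 other genes, right of it, by protein ID. Red symbols are xylan-galactomannan, blue symbols wheat straw, shapes mark the replicates and bars the means. The colours separate for every gene shown, with blue above red except for 3335 and 8358, where red is above.

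The hemicellulose list was also lower on xylan-galactomannan, a substrate made of hemicelluloses. Of its 7 members 6 were called lower and 0 higher, with a median log2 fold change of -1.87 beside 0.02 for all genes. The log2 fold changes ran from -3.22 to -0.87, a range that overlaps that of the cellulose list. The replicates of the 2 groups did not overlap for any of the 7, nor for 59.2% of all genes tested.

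A GH31 enzyme, a predicted α-glucosidase with protein ID 9738, had 983, 861 and 753 normalized counts on xylan-galactomannan and 7004, 8553 and 8792 on wheat straw (log2 fold change -3.22 ± 0.18 (SE), adjusted p = 2.5e-10). A GH3 β-glucosidase, protein ID 4566, had 768, 981 and 656 against 6344, 8060 and 7610 (-3.19 ± 0.22 (SE), adjusted p = 3e-09). A GH35 β-galactosidase, protein ID 7004, had 2579, 2461 and 2535 against 17586, 19166 and 21459 (-2.94 ± 0.22 (SE), adjusted p = 9.2e-09). Enzymes of the classes of 9738 and 4566 are not specific to hemicelluloses, since α-glucosidases act on starch-like glucans and β-glucosidases on cellulose fragments, and of the other 5 members 4 were called lower. For 9738 and 4566 the xylan-galactomannan means, 866 ± 115 and 802 ± 165 (SD), were close to those on maltose, 807 ± 14.7 and 623 ± 107 (SD).

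The predicted mannosidase of family GH2, protein ID 1092, removes mannose from chain ends released from mannans. It had 1328, 1213 and 1097 normalized counts on xylan-galactomannan and 4216, 4525 and 4664 on wheat straw (log2 fold change -1.87 ± 0.15 (SE), adjusted p = 1.4e-08). Protein ID 7245 belongs to GH27, a family that includes α-galactosidases, and was predicted by the study to be an arabinosidase. It had 3670, 3147 and 3711 against 7928, 8507 and 8256 (-1.22 ± 0.12 (SE), adjusted p = 3.3e-07). For both genes all 3 wheat straw libraries were higher, and the xylan-galactomannan means, 1213 and 3510, lay between the maltose means, 344 ± 24.3 and 1967 ± 73.6 (SD), and the wheat straw means, 4468 and 8230.

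Protein ID 929 of GH95, a family of α-fucosidases that act on xyloglucan side chains, had 2243, 2784 and 2113 normalized counts on xylan-galactomannan and 4190, 6010 and 6605 on wheat straw (-1.23 ± 0.29 (SE), adjusted p = 0.0018). The member not called, protein ID 2526 of GH79, a β-glucuronidase family, had a log2 fold change of -0.87 ± 0.12 (SE, adjusted p = 1.3e-05), inside the threshold of 1.

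Of the 3 pectin genes, 2 were lower on xylan-galactomannan. Protein ID 8220 of GH88, which acts on unsaturated fragments of pectin and related polymers, had 2214, 1376 and 2240 normalized counts against 5237, 6795 and 6588 on wheat straw (log2 fold change -1.67 ± 0.2 (SE)). Protein ID 3798 of GH28, a family of polygalacturonases that cut the pectin chain, had 2153, 3551 and 2886 against 5688, 6990 and 7778 (-1.24 ± 0.18 (SE)). A second GH28 gene, protein ID 8001, did not pass: it had 11590, 11757 and 17566 on xylan-galactomannan and 16915, 20376 and 25386 on wheat straw, and these ranges overlapped. On maltose that gene had a mean of only 587 ± 89.8 (SD, n = 3).

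The list of genes for the fungal wall, glycoprotein sugars and storage carbohydrates also holds an expansin-like gene. Of its 12 members 10 were lower as well, with a median log2 fold change of -1.59 and none higher. The expansin-like protein ID 10401, of a class of proteins that loosen plant cell walls without cutting them, had 6680, 5638 and 9316 normalized counts on xylan-galactomannan and 37882, 53317 and 45750 on wheat straw. Its log2 fold change was -2.66 ± 0.23 (SE, adjusted p = 4.9e-08), and its mean on xylan-galactomannan, 7211 ± 1900 (SD), was above that on maltose, 688 ± 114 (SD).

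The 3 GH92 genes, of a family of α-mannosidases that trim glycoprotein sugars, moved in the same direction. Protein ID 6857 had a mean of 329 ± 98.2 (SD) on xylan-galactomannan against 2441 ± 481 on wheat straw (log2 fold change -2.89 ± 0.35 (SE)), protein ID 6860 had 2023 ± 616 against 11847 ± 500 (-2.55 ± 0.3 (SE)), and protein ID 598 had 1775 ± 560 against 7000 ± 665 (-1.98 ± 0.25 (SE)). In all 3 genes xylan-galactomannan replicate 1 was the highest and replicate 2 the lowest of that group. The member of the related family GH125, protein ID 10255, had -0.27 ± 0.16 (SE) and was not called.

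The 3 GH18 genes, a family of chitinases that cut the chitin of fungal walls, were all lower, whereas of 4 genes outside the list with the chitinase class KOG4701, protein IDs 9620 (-4.29) and 8195 (-1.42) were lower and protein IDs 2847 (-0.65) and 4072 (-0.39) were not called. Their means on xylan-galactomannan and wheat straw were 378 and 1202 for protein ID 7817 (log2 fold change -1.66 ± 0.25 (SE)), 2028 and 5216 for protein ID 2012 (-1.36 ± 0.19 (SE)) and 367 and 790 for protein ID 1643 (-1.1 ± 0.27 (SE)). The call of 1643 was lost without wheat straw replicate 2 (-0.91). The exo-β-1,3-glucanase protein ID 7620, which acts on fungal glucans, fell from 10174 ± 1390 (SD) on wheat straw to 3051 ± 196 on xylan-galactomannan, a log2 fold change of -1.73 ± 0.16 (SE), whereas its relative protein ID 8439 had -0.39 ± 0.16 (SE) and did not pass. An α-amylase for starch and glycogen, protein ID 3712, had -1.51 ± 0.16 (SE) and a trehalase, which splits the storage sugar trehalose, protein ID 6931, had -1.12 ± 0.19 (SE).

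Among 16 genes for aromatic compounds and detoxification 7 were lower and 0 higher, with a median log2 fold change of -0.75. The 2 laccases were both lower but to a different extent. Protein ID 3446 had 1746, 1155 and 1338 normalized counts on xylan-galactomannan and 20053, 16955 and 16144 on wheat straw (log2 fold change -3.64 ± 0.17 (SE), adjusted p = 5e-11). Protein ID 8672 had 4932, 2772 and 4660 against 11444, 12471 and 9039 (-1.41 ± 0.26 (SE), adjusted p = 0.00027). Both were separate between the groups. The other carbon sources set them further apart, since 3446 had its highest mean on wheat straw and 8672 had 71693 ± 4260 (SD, n = 3) on aspen.

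Of the 4 genes of the cytochrome P450 class KOG0157, protein ID 8493 (log2 fold change -1.55 ± 0.15 (SE)) and protein ID 2161 (-1.48 ± 0.17 (SE)) were called lower, with means on xylan-galactomannan and wheat straw of 2134 and 6268, and of 3398 and 9499. The other 2, protein ID 1192 and protein ID 5611, had -0.53 ± 0.15 and 0.14 ± 0.26 (SE) and were not called. A glucose-methanol-choline oxidoreductase, protein ID 3421, of a family whose members can supply hydrogen peroxide, had 2364, 973 and 1278 normalized counts against 4746, 4538 and 3858 (-1.51 ± 0.32 (SE), adjusted p = 0.00094). An ABC transporter, protein ID 4353 (-1.49 ± 0.19 (SE)), and an alkyl hydroperoxide reductase, protein ID 1284 (-1.41 ± 0.17 (SE)), which removes peroxides, were also lower. Another ABC transporter, protein ID 4348, had -0.46 ± 0.32 (SE) and was not called. The 9 members not called ran from -0.77, for the homogentisate dioxygenase protein ID 6432, to 0.46, for the epoxide hydrolase protein ID 5280.

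Of 16 transporter genes 5 were lower and 0 higher, with a median log2 fold change of -0.83. An aquaporin, a water or glycerol channel with protein ID 7930, had 1067, 993 and 1075 normalized counts on xylan-galactomannan and 3681, 4820 and 4790 on wheat straw (-2.08 ± 0.21 (SE), adjusted p = 4.7e-07). Another aquaporin, protein ID 7058, had -0.98 ± 0.28 (SE) and was not called. The 3 major facilitator transporters of the class KOG0254, which holds many sugar transporters, moved by nearly the same amount. Protein ID 6423 had -1.3 ± 0.19, protein ID 6154 -1.21 ± 0.18 and protein ID 2165 -1.2 ± 0.16 (SE). For 2165 the means were 3692 ± 131 (SD) on xylan-galactomannan, 8541 ± 462 on wheat straw and 292 ± 24.3 on maltose, and those of 6423 were 5655 ± 533, 13960 ± 550 and 751 ± 28. Both genes were therefore between the maltose and the wheat straw level on xylan-galactomannan. A phosphate transporter, protein ID 1924, had -1.07 ± 0.18 (SE), and its call was lost without wheat straw replicate 3 (-0.96). Another phosphate transporter of the same class, protein ID 56, leaned the other way with 0.43 ± 0.14 (SE) and was not called. The 11 transporters not called lay between -0.98 and 0.43. Among them were all major facilitator genes of the other classes, KOG0253, KOG0255 and KOG2533, which ran from -0.98 to 0.09.

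The pentose and polyol genes were the only one of the 7 lists with members called in both directions. Of 5 members 2 were higher and 1 was lower on xylan-galactomannan, and the list median was -0.22, which became -0.03 without wheat straw replicate 1. The call of each of the 3 was kept under all alternatives. The 2 aldo/keto reductases, of the family to which fungal xylose reductases belong, were the higher ones. Protein ID 3335 had 14997, 18457 and 20152 normalized counts on xylan-galactomannan and 5518, 6261 and 7041 on wheat straw, so that every xylan-galactomannan library was above every wheat straw library. Its log2 fold change was 1.52 ± 0.2 (SE, adjusted p = 6.8e-06), a 2.85-fold difference of the means.

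Protein ID 8358 had 3697, 3744 and 4120 normalized counts on xylan-galactomannan and 1187, 1120 and 1038 on wheat straw (log2 fold change 1.8 ± 0.13 (SE), adjusted p = 4.3e-09). The 2 reductases stood differently among the other carbon sources. The xylan-galactomannan mean of 3335, 17869 ± 2630 (SD), was the highest of the 6 groups, above pine with 11126 ± 2040, and maltose and Avicel had 829 ± 166 and 259 ± 75. The wheat straw mean of 8358, 1115 ± 74.7, was the lowest of its 6 groups. Its aspen and xylan-galactomannan means were 4560 ± 689 and 3854 ± 232, and no test was made between these 2.

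Arabinitol dehydrogenases oxidise the polyol formed from arabinose. Protein ID 104, of the class KOG0725 and with this role only predicted, moved the other way. It had 614, 984 and 613 normalized counts on xylan-galactomannan and 8976, 13096 and 12919 on wheat straw, a 15.8-fold difference of the means (log2 fold change -3.97 ± 0.31 (SE), adjusted p = 1.5e-08). Its mean on maltose was 407 ± 75.3 (SD) and on aspen and pine 3934 ± 542 and 5569 ± 787. The xylulokinase, protein ID 8966, had 3424, 3555 and 3282 against 5053, 3526 and 3477, overlapping ranges with -0.22 ± 0.19 (SE, adjusted p = 0.35), and the glycerol kinase, protein ID 3400, had -0.67 ± 0.25 (SE). The 2 predicted reductases and the predicted dehydrogenase thus differed in direction, and neither kinase was called.

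**Figure D4:**
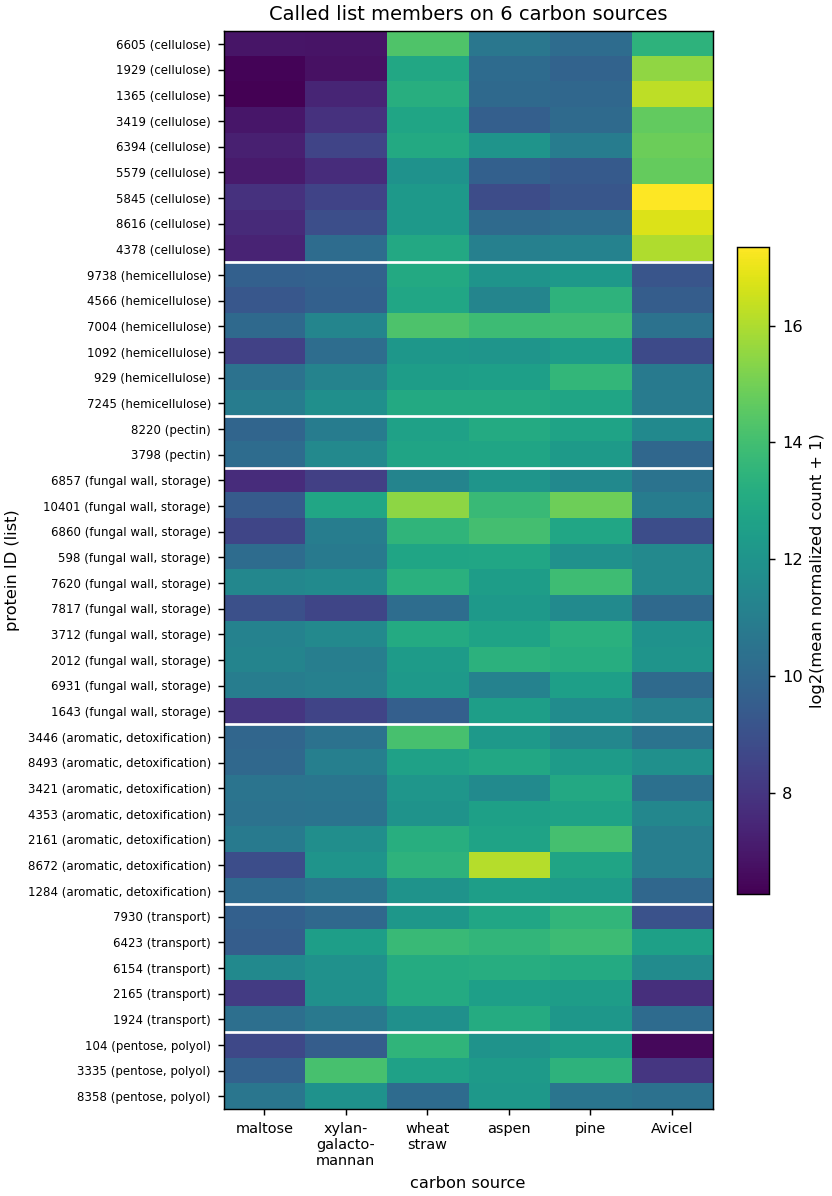
Mean transcript level, as log2(mean normalized count + 1), of the 42 called members of the 7 role lists (rows, by protein ID) on the 6 carbon sources (columns), with 3 libraries per group and 2 for Avicel. Yellow is high and dark blue low, and the cellulose rows are dark on maltose and xylan-galactomannan and brightest on Avicel apart from 6605, while 3335 is brightest on xylan-galactomannan.

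A further 108 genes of the study's tables have other or no predicted roles, and of these 37 (34.3%) were lower and 5 (4.63%) higher on xylan-galactomannan, beside 7.76% and 7.49% of all genes tested. The share of higher genes was thus not above that of all genes, and the 5 are described one by one only. None of the 4 annotated genes among the 5 higher ones belongs to a family that degrades polysaccharides. A gene of the cystathionine β-lyase family of sulphur amino acid metabolism, protein ID 8051, had 8530, 10003 and 9287 normalized counts against 2541, 2343 and 2175 on wheat straw (log2 fold change 1.99 ± 0.28 (SE), adjusted p = 1.4e-05). A 2-hydroxyacid dehydrogenase, protein ID 8551, had 9788, 12967 and 9751 against 4567, 2681 and 2287 (1.78 ± 0.31 (SE)). All 5 were separate between the groups, as were 59.2% of all genes tested.

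A tripeptidyl-peptidase, protein ID 5902, had 5692, 6271 and 5549 normalized counts on xylan-galactomannan and 2774, 2161 and 1529 on wheat straw (1.45 ± 0.25 (SE)). A phosphatidylserine decarboxylase of membrane lipid synthesis, protein ID 2642, had 3030, 2612 and 3394 against 1279, 1171 and 882 (1.45 ± 0.17 (SE)). A gene without annotation, protein ID 2923, had 1188, 1619 and 1894 against 798, 634 and 648 (1.18 ± 0.2 (SE)). In each of the 5, xylan-galactomannan was second highest among the 6 carbon sources.

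All 176 genes of the study's tables were also counted by signal peptide and by the substrates for which they had been listed. Over all 176, 77 (43.8%) were lower and 7 (3.98%) higher, with a median log2 fold change of -0.79, beside 7.76% and 7.49% of all genes tested. Of the 43 with a predicted signal peptide 25 (58.1%) were lower and 0 higher on xylan-galactomannan, and their median was -1.24. None of the 9 cellulose list genes is marked with a signal peptide, although the study detected secreted protein for 5845 and others of them. A missing mark may therefore mean that no prediction was available. Of the 78 that the study had listed for wheat straw, mostly together with aspen and pine, 50 (64.1%) were lower and 1 higher, with a median of -1.31, but these genes had been picked for a high level on wheat straw, so their direction is in part set by the choice. Among the 46 listed for pine alone 12 were lower and 1 higher, and among the 29 listed for aspen alone 6 were lower and 4 higher, with medians of -0.59 and -0.54.

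Outside the study's tables, the genes with the largest changes and separate replicates have no function in the sources used here. Protein ID 8640 had 260, 94.8 and 737 normalized counts on xylan-galactomannan and 110341, 147205 and 218359 on wheat straw, a 436-fold difference of the means (log2 fold change -8.77 ± 0.66 (SE), adjusted p = 9.7e-09). It had 340325 ± 103000 (SD, n = 2) on Avicel and 37.9 ± 3.07 (SD, n = 3) on maltose, and these were its highest and lowest means, as for most of the cellulose list. Protein ID 3545 had no read in any xylan-galactomannan library and 109, 125 and 100 reads on wheat straw, so that it was at least 108-fold higher on wheat straw, with the floor set at 3 counts over the 3 libraries. On aspen its mean was 29.2 ± 5.67 (SD) normalized counts and on maltose 1.09 ± 1.21.

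In the other direction, protein ID 8236 had 127, 117 and 119 normalized counts on xylan-galactomannan and 2.61, 0 and 0 on wheat straw. The 3 reads on wheat straw give a ratio of 139, with a 95% exact Poisson interval from 47.7 to 676 for the counting error of these 3 reads alone. It was also low on aspen, 0.439 ± 0.761 (SD), and pine, 1.25 ± 2.16, and had 14.7 ± 7.11 on maltose. Protein ID 2937 had 12, 25 and 11 reads on xylan-galactomannan and no read on wheat straw, at least 16.8-fold higher by the same floor. These 2 genes were thus low or without reads in every wheat straw library, at counts where the fold change is poorly fixed.

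The called genes were placed among all 6 carbon sources by their group means, as a description, since they were chosen by 2 of these groups. Of 684 higher genes with a normalized level, 401 had their highest mean on xylan-galactomannan and 327 their lowest on wheat straw. Of 709 lower genes, 238 had their highest mean on wheat straw and 258 their lowest on xylan-galactomannan. Over all genes, xylan-galactomannan was highest for 17.5% and lowest for 15.2%, and wheat straw was highest for 8.74% and lowest for 10.8%.

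The lower genes took between 4.04 and 5.24% of the counts in the xylan-galactomannan libraries, against 17.2 to 21.7% on wheat straw. Both sets of called genes were chosen between xylan-galactomannan and wheat straw, so the gap between these 2 groups is set by that choice. On maltose the lower genes took 4.29 to 4.61%, much the same as on xylan-galactomannan. Aspen with 15.1 to 17.1%, pine with 13.2 to 15.4% and Avicel with 20.2 to 25.5% were on the wheat straw side by this share. A share of counts weighs abundant genes most. Gene by gene, the median log2 fold change of the lower genes against maltose was 1.22 on aspen, 1.34 on pine and only 0.29 on Avicel. The higher genes took between 16.5 and 20.9% on xylan-galactomannan and between 4.95 and 6.86% on wheat straw. For them maltose had 13.6 to 14.5%, and aspen, pine and Avicel lay between 8.16 and 10%.

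**Figure D5:**
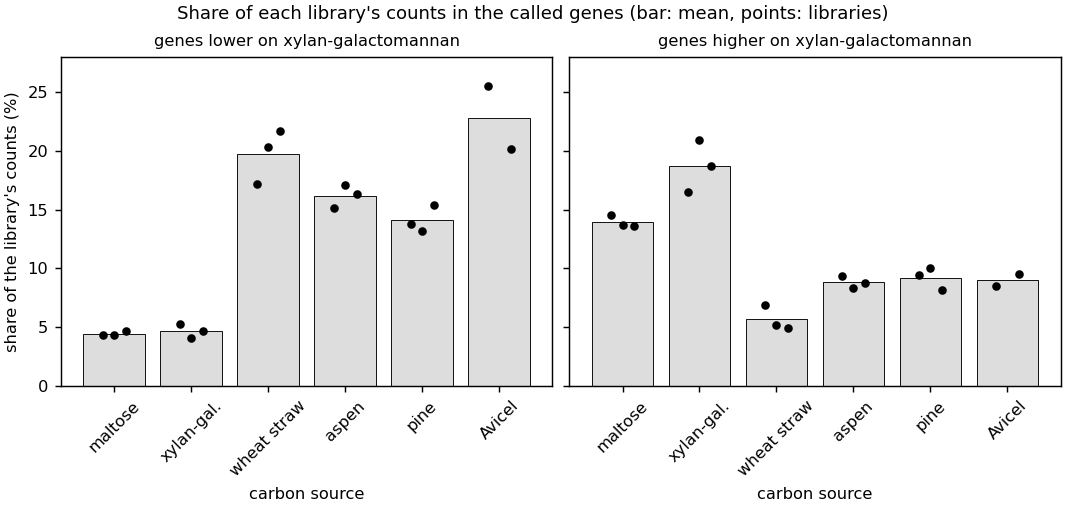
Share of each library's counts, in percent, that fell on the 711 genes lower on xylan-galactomannan than on wheat straw (left) and on the 686 higher genes (right), by carbon source. Points are libraries and bars group means. On the left maltose and xylan-galactomannan lie at or below 5.24% and the other groups above 13%. On the right wheat straw is lowest and xylan-galactomannan highest. The genes were called between these last 2 groups, so the gap between them is set by the choice.

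Comparisons that share no library with this one were then set beside it. On aspen against maltose 13.1% of all genes were higher and 10% lower, on pine against maltose 13.7% and 9.34%, and on Avicel against maltose 6.01% and 5.83%. Of the 711 genes lower on xylan-galactomannan than on wheat straw, 399 (56.1%) were higher on aspen than on maltose, 429 (60.3%) were higher on pine and 171 (24.1%) were higher on Avicel. These are 33.4% of the 1196 genes higher on aspen, 34.3% of the 1252 higher on pine and 31% of the 551 higher on Avicel. In the other direction, 5 of the 711 (0.703%) were lower on pine than on maltose, 34 (4.78%) on aspen and 32 (4.5%) on Avicel. The Avicel share was close to the 5.83% of all genes.

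The higher genes were set beside the same comparisons. Of the 686, 209 (30.5%) were lower on aspen than on maltose, 232 (33.8%) on pine and 120 (17.5%) on Avicel, and these are 22.8%, 27.1% and 22.5% of the genes called lower there. In the same direction, 77 (11.2%) were higher on aspen and 67 (9.77%) on pine, below the shares of all genes, and 68 (9.91%) were higher on Avicel, above the share of all genes. Of the 711 lower genes 358 (50.4%) were higher on both woods, 137 (19.3%) also on Avicel, and 226 (31.8%) were higher in none of the 3 comparisons, where all genes tested gave 8.67%, 2.58% and 79.7%. Of the 686 higher genes 141 (20.6%) were lower on both woods and 359 (52.3%) were lower in none of the 3, where all genes tested gave 4.48% and 83.5%. The aspen, pine and Avicel comparisons share their maltose libraries with each other, and no test was made of these overlaps.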

How the data were processed

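Read counts per gene model were deposited for all libraries. The authors sequenced poly-A RNA as paired-end Illumina reads and used TopHat2 for alignment and HTSeq for counting. Tool versions, strandedness and the handling of multiply mapped reads are not given in the sources consulted, which leaves counts of near-identical copies uncertain. A further deposited table gives a normalized signal, the counts divided by DESeq size factors, for the 9167 gene models with at least 85 counts in all. Tests used the counts with edgeR 4.0.16 in R 4.3.3 (filterByExpr, TMM, 1 quasi-likelihood model over the 17 libraries with group as its only term), and the script was tested on simulated data. Standard errors are the log2 fold change over the square root of the F statistic. Named genes are all called members of the 7 lists, the annotated higher members of the other genes, and the 2 extreme genes in each direction outside the lists with separate replicates. Protein IDs 2923 and 5902 were added after their values were seen. Members and lists were chosen with earlier results of these data known. Replicates numbered alike did not deviate together. Matching protein IDs to the RefSeq gene table gave 0 hits, so no sequence or position is given. Alternatives included DESeq2 1.42.0, 2 other scalings, no filter, Bonferroni adjustment and each replicate left out.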

Additional observations from a re-analysis of the deposited data

How the results depend on the processing

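Across 14 alternative settings the 51 named genes kept their direction in all 714 results, and 702 kept their call. Bonferroni adjustment and the setting without the fold-change threshold reuse the main fit, so no direction could change there. Without the threshold no call could be lost either. These totals thus include results that were fixed in advance. The 12 lost calls concern 10 genes, 10 of the calls under Bonferroni adjustment and the others those of 1643 and 1924 when a wheat straw replicate was left out. Under Bonferroni adjustment 414 genes were higher and 446 lower, and without the fold-change threshold 2444 and 2255. With 1 replicate left out the higher genes ranged from 594 (without xylan-galactomannan replicate 2) to 831 (without xylan-galactomannan replicate 1) and the lower genes from 658 to 814. The replicate numbers did not pair the libraries (correlations of the deviations of like-numbered libraries -0.0537, 0.012 and -0.0193), and with the replicate block 676 genes were higher and 724 lower.

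The shares of called genes that were also called in the opposite direction against maltose moved most. Under Bonferroni adjustment the lower genes were higher on aspen in 64.1% and on pine in 64.6%, and the higher genes were lower on Avicel in 10.1%. Without the fold-change threshold the lower genes were higher on aspen in 49.8% and on pine in 56.1%, and the higher genes were lower on aspen in 43.8%, on pine in 50.8% and on Avicel in 21.4%. With upper-quartile factors the pine shares were 55.9% and 38.9%. With 1 replicate left out, the shares of lower genes were 50.1 to 60% for aspen, 55.2 to 63.9% for pine and 20.6 to 25.9% for Avicel, and the shares of higher genes were 26.7 to 30.8%, 31.4 to 35.4% and 15.2 to 19.5%. Every list median kept its sign, but that of the pentose and polyol list ranged from -0.318 to -0.028 with 1 replicate left out, the latter without wheat straw replicate 1. With only the 6 libraries compared, the adjusted p values (edgeR) of most named genes were larger, such as 4.5e-06 for 6605 and 0.00011 for 5845. Those of 929 and 1643 were smaller, at 0.0012 and 0.0016. In that setting the shares have no value because the other groups are absent.

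Genes with few reads, such as 2937, have the least certain fold changes.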

Other observations

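Of the genes in the study's tables without a role list, the 2 that were furthest below on xylan-galactomannan were named after their values were seen. Protein ID 3445, with a predicted signal peptide and no predicted function, had 1396, 1571 and 2902 normalized counts on xylan-galactomannan and 38863, 41261 and 41095 on wheat straw (log2 fold change -4.36 ± 0.3 (SE), edgeR adjusted p = 3.8e-09). Its protein ID is next to that of the laccase 3446, which was lower by 3.64 on the log2 scale. Protein ID 9620, of the chitinase class KOG4701, had 1470, 979 and 1055 against 21107, 24411 and 23184 (-4.29 ± 0.26 (SE)), and of the other 3 genes of that class 1 was called lower and 2 were not called.

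Called genes often had a neighbouring protein ID (1 above or 1 below) that was called in the same direction. This was so for 178 of the 686 higher genes (25.9%) and for 210 of the 711 lower genes (29.5%), whereas 12.5% and 12.7% of the genes not called had such a neighbour. Whether neighbouring IDs are neighbours in the genome, and whether near-identical copies share reads, was not tested.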
